A study of Mus musculus with 15 samples.

Results

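Carbonic anhydrases catalyse the interconversion of carbon dioxide and water with bicarbonate and a proton, and most of them do so with a zinc ion held by histidine side chains. In the epididymis, the duct in which sperm mature and are stored, they serve the epithelium that keeps the luminal fluid acidic and low in bicarbonate, a state in which sperm stay quiescent. Family members differ mainly in where they sit: in the cytosol, in mitochondria, on a lipid anchor or a membrane-spanning stretch at the cell surface, or, for the related proteins without catalytic activity, in the cell or secreted. Described here are the 10 genes Car2, Car3, Car4, Car5b, Car8, Car9, Car11, Car12, Car13 and Car14, taken by symbol from 41591 gene IDs of a table of raw read counts. All 10 were found, and 9 of them were among the 19388 genes with enough counts to be tested; Car8 was not.

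The 15 libraries, made with a stranded mRNA kit, hold RNA of whole epididymides that had been teased apart and rinsed to wash out sperm, from mice of 7 weeks. Plag1, the gene of a zinc finger transcription factor, was intact in 5 samples (wild type, WT), heterozygous in 5 (HET, Plag1 -/+) and knocked out in 5 (KO, Plag1 -/-); the strain label of every sample reads Brown Swiss. The comparisons address how levels of these genes differ with the Plag1 genotype. The construct of the mutant allele and any batch are not given in the labels and not used here.

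Libraries held 20304440 to 41957608 counts. The 9 genes that mark the epididymal epithelium summed to at least 71850 CPM (counts scaled per 1e6 counts of a library) in each of the 15. Plag1 itself spanned 11.9 to 14.0 CPM across the WT libraries, 8.11 to 11.8 across HET and 6.99 to 9.37 across KO, so transcripts of the targeted gene were lower in each KO library than in each WT library. Counts cover the whole gene, and reads of exons that the mutation leaves intact check nothing. The library KO-738 was set apart from the other KO libraries in several values below, and it and HET-693 held 1.29% and 1.3% ribosomal RNA counts against at most 0.509% elsewhere. The library KO-739 held 5739 CPM over 12 skeletal muscle genes against at most 120 CPM elsewhere. Samples are named by genotype and a number, read here as that of the animal. All WT samples carry numbers above 700, whereas 2 HET samples (HET-692 and HET-693) and 3 KO samples (KO-694, KO-695 and KO-696) carry numbers below it; the labels do not say what the numbers mean.

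The stretch of coding sequence around the zinc-binding histidines separates the catalytic members from the related protein of Car11, and is shown for the 6 members with an entry in the RefSeq promoter table (GRCm38.p6), the others being Car2, Car3, Car8 and Car13. Sequences are from the GENCODE M21 transcripts, 5′ to 3′, and capitals mark the 3 triplets that align with those for the zinc-binding histidines of Car4.
Car4: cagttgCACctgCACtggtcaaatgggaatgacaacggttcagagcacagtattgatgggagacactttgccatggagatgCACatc
Car5b: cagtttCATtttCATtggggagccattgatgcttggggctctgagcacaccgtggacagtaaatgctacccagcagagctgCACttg
Car9: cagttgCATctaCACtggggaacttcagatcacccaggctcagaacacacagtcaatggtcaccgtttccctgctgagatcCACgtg
Car12: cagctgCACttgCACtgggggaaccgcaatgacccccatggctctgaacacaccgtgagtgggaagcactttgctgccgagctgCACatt
Car14: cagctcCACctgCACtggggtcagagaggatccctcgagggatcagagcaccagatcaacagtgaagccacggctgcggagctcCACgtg
Car11: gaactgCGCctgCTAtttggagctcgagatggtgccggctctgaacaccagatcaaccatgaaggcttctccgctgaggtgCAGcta
In Car4, Car5b, Car9, Car12 and Car14, 3 of 3 triplets were histidine triplets (CAC or CAT), and in Car11 0 of 3 were. Over the aligned residues the predicted proteins of Car5b, Car9, Car12 and Car14 were 33.1% to 35.9% identical to that of Car4, and that of Car11 was 25.5% identical.

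By level per kilobase of exon, Car4 was the leading member in WT, followed by Car2. Car4 (chromosome 11, 84957754 to 84966054) encodes the enzyme that a lipid anchor holds at the outer cell surface, and stood at 126 ± 9.94 CPM per kb (SD, n = 5) in WT. Car2 (chromosome 3, 14886269 to 14900770), the fast cytosolic enzyme, stood at 44.6 ± 2.64 CPM per kb, and no WT library of Car2 reached the lowest of Car4. The mitochondrial Car5b followed at 21.4 ± 1.73 and the membrane-spanning Car12 at 18.7 ± 1.02 CPM per kb, and the WT ranges of these 2 genes overlapped. Car14, another membrane-spanning enzyme, stood at 6.60 ± 0.884, the slow cytosolic Car3 at 4.99 ± 3.93 and Car11 at 4.03 ± 0.48 CPM per kb. The WT ranges of Car14 and Car3 overlapped, as did those of Car3 and Car11. The cytosolic Car13 (1.24 ± 0.156) and the hypoxia-inducible Car9 (0.308 ± 0.0965) were lower still, and Car8 lay at the limit of detection with 0.0151 ± 0.0219 CPM per kb. With Car3 left out, Car4 made up 54.3% to 59.1% of the summed level per kb of the members in WT, Car2 18.9% to 21.1%, Car5b 8.71% to 10.7% and Car12 7.55% to 8.99%.

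**Figure D1:**
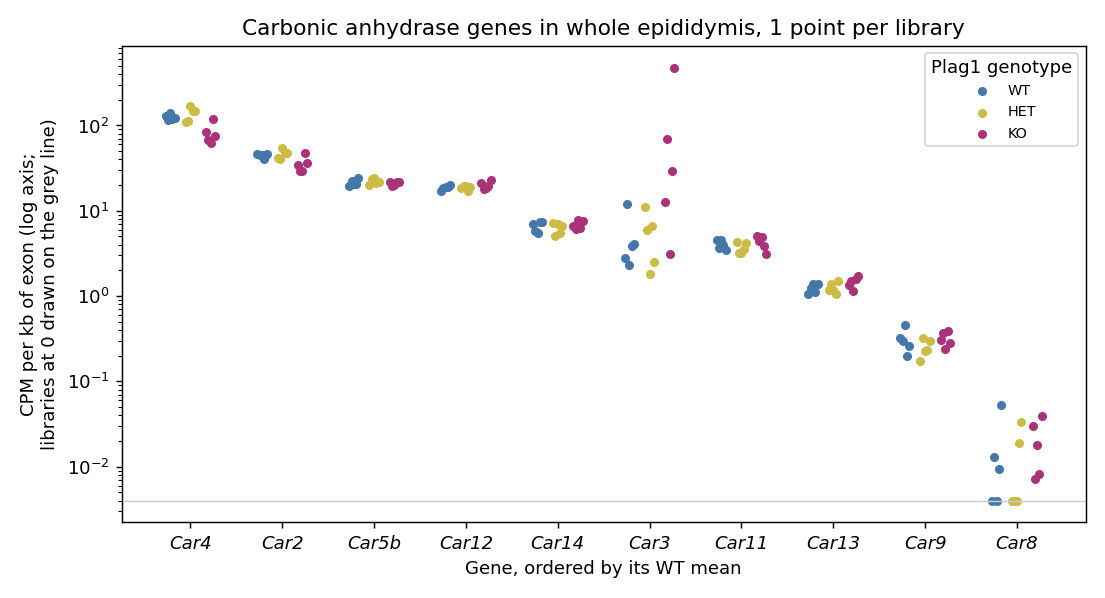
Level of each carbonic anhydrase gene in CPM per kilobase of exon (log axis), 1 point per library, coloured by genotype and ordered by the WT mean; libraries without a count are drawn on the grey line. Car4 and Car2 lead in WT, Car3 spreads furthest in KO, and Car8 has no count in 5 libraries.

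In KO against WT, 1 of the 9 tested members fell and 1 rose. Car4 fell to 64.9% of its WT level, and Car3 rose, with most of its KO reads in a single library. The other 7 members did not pass the test, among them Car2 with a log2 fold change of -0.34. These 2 calls are to be read against 6% of all 19388 tested genes called in this comparison (4.4% higher and 1.6% lower). An unadjusted p under 0.05 was reached by 3 members (Car2, Car3 and Car4), against 23.6% of all tested genes. The median log2 fold change of the 9 members was 0.06, against -0.01 over all tested genes. In 0 of the 9 members did the KO and WT libraries fall into ranges that did not overlap, against 4.21% of all tested genes (2.84% with KO higher and 1.37% with KO lower). The same count was 0 of 9 in HET against WT, where 1.04% of all tested genes did not overlap, and 0 of 9 in KO against HET, where 3.6% did not (2.18% with KO higher and 1.42% with KO lower).

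**Figure D2:**
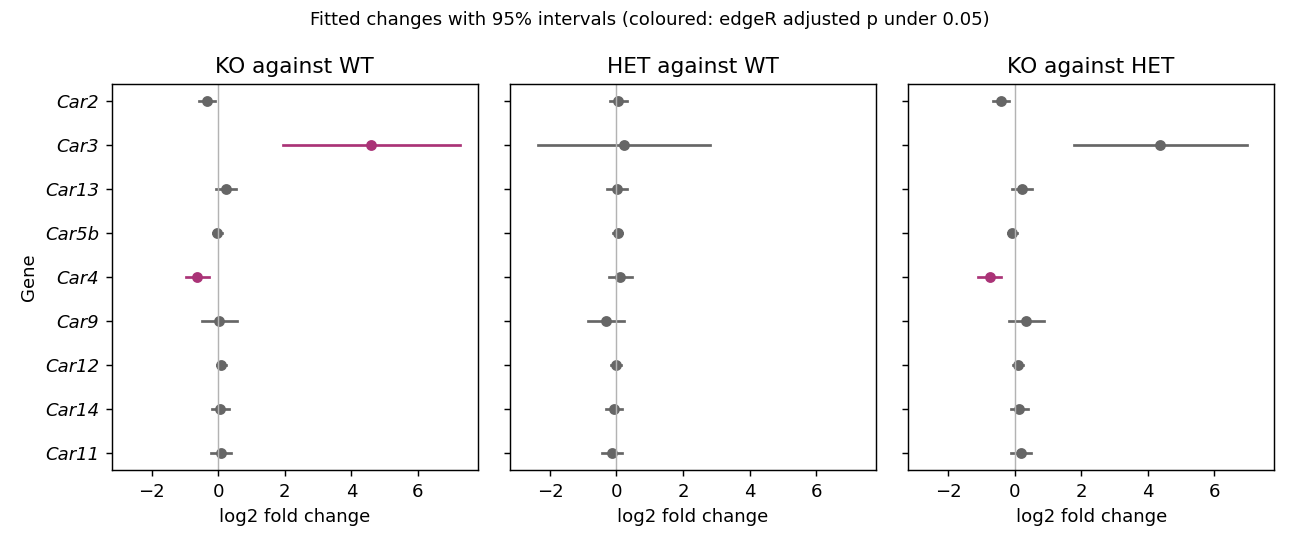
Fitted log2 fold change (x axis) of the 9 tested genes with its 95% interval in the 3 comparisons, coloured where the edgeR adjusted p was under 0.05. In KO, Car4 lies below 0 against WT and against HET, Car3 lies far above 0 with a wide interval, and Car5b and Car12 lie close to 0 with narrow intervals.

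Car4 stood at 164, 144, 176, 151 and 154 CPM in WT-709, WT-719, WT-720, WT-723 and WT-726. In HET-692 and HET-693 it stood at 137 and 143 CPM, and in HET-715, HET-718 and HET-735 at 210, 184 and 184 CPM. Among KO it stood at 106.5 CPM in KO-694, at 84.6 CPM in KO-695, at 78.7 CPM in KO-696, at 148 CPM in KO-738 and at 93.5 CPM in KO-739. Of the KO libraries, 4 lay below every WT and HET library, whereas KO-738 lay inside the WT range. The WT mean was 158 ± 12.5 CPM (SD, n = 5), that of HET 172 ± 30.8 and that of KO 102 ± 27.7. From WT to KO Car4 fell by 0.63 on the log2 scale (SE 0.16, edgeR adjusted p = 0.032), and from HET to KO it fell by 0.75 (SE 0.16, adjusted p = 0.0302). Both comparisons share the KO libraries. As these are whole organs, fewer cells with Car4 and less Car4 RNA per cell cannot be told apart.

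Without KO-738 the Car4 value was -0.79 against WT (edgeR adjusted p = 0.000747) and -0.91 against HET (0.000811). Over all genes, 2923 and 2443 of 19539 were called in that fit, against 1163 and 380 of 19388 with all libraries. The Car4 call against WT was lost in 9 of 15 fits without 1 library (without any of the 5 WT libraries, KO-694, KO-695, KO-696 or KO-739), with adjusted p-values up to 0.0838. Those 9 fits called 318 to 847 genes over the whole table, and the Car4 value ran from -0.79 to -0.55 over all 15. With the animal number range as a term the value against WT was -0.38 (edgeR adjusted p = 0.166), and among animals numbered 700 and above, with 2 KO libraries, it was -0.39 (0.266). Against HET the value with the term was -0.66 (edgeR adjusted p = 0.0278), and among animals numbered 700 and above it was -0.65 (0.286). Over all genes, 177 were called against WT and 362 against HET with the term, and 0 in either among animals numbered 700 and above. The Car4 call against HET was lost in 8 of 15 fits without 1 library (HET-693, HET-715, HET-718, HET-735, KO-694, KO-695, KO-696 or KO-739), with adjusted p-values up to 0.0865. Those 8 fits called 0 to 206 genes over the whole table, against 380 with all libraries. The Car4 value ran from -0.91 to -0.65 over all 15 fits. Below 700, Car4 ran from 78.7 to 106.5 CPM in 3 KO libraries and from 137 to 143 in 2 HET libraries. From 700 on, it ran from 93.5 to 148 CPM in 2 KO libraries and from 184 to 210 in 3 HET libraries. In either range every KO library lay below every HET library, and within HET the lower-numbered animals lay below the others.

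Car2 was low in the same KO libraries as Car4, with smaller differences. It stood at 82.1, 79.6, 81.0, 71.7 and 83.9 CPM in WT, at 75.0 and 72.8 CPM in HET-692 and HET-693, and at 96.3, 85.3 and 86.2 CPM in the other HET libraries. Among KO it stood at 61.1 CPM in KO-694, at 52.3 CPM in KO-695, at 52.7 CPM in KO-696, at 84.0 CPM in KO-738 and at 64.6 CPM in KO-739. Again 4 KO libraries lay below every WT library, and KO-738 lay above all of WT. The WT mean was 79.7 ± 4.72 CPM (SD, n = 5), that of HET 83.1 ± 9.49 and that of KO 62.9 ± 12.9. The log2 fold change was -0.34 ± 0.11 (SE) against WT (edgeR adjusted p = 0.0828) and -0.40 ± 0.11 against HET (0.0733), so neither passed over all genes. Without KO-738 the values were -0.46 (edgeR adjusted p = 0.00195) and -0.52 (0.00196), and both passed. Over all genes, 2923 and 2443 of 19539 then passed, against 1163 and 380 of 19388 with all libraries. With the number range as a term the Car2 values were -0.15 (edgeR adjusted p = 0.392) and -0.34 (0.0385), with 177 and 362 genes called.

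**Figure D3:**
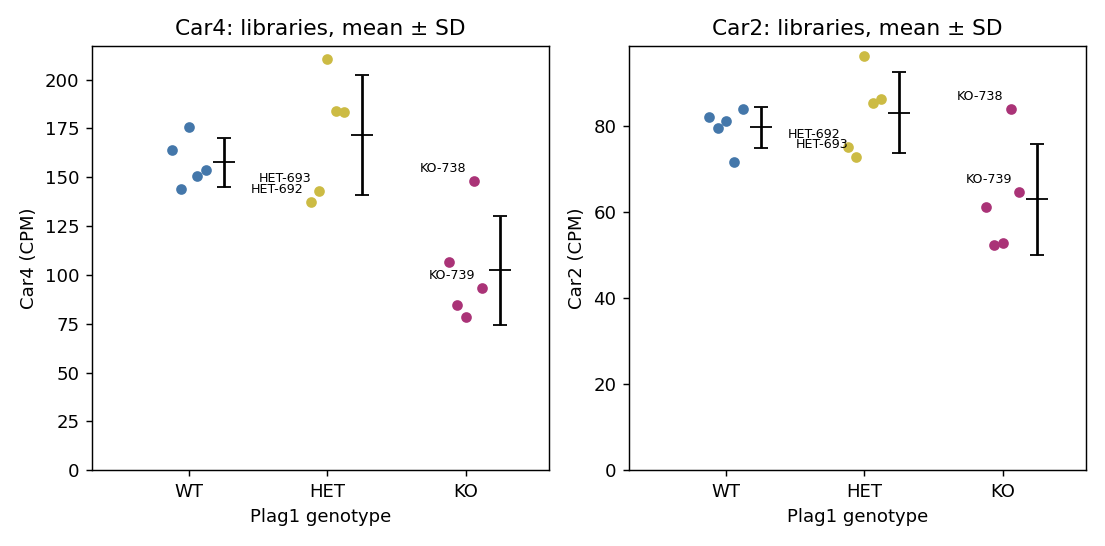
Car4 (left) and Car2 (right) in CPM by genotype, 1 point per library, with the mean and SD of 5 libraries at the right of each group. The KO libraries other than KO-738 lie below all WT libraries in both genes, and HET-692 and HET-693 lie below the other HET libraries.

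Over the 15 libraries log2 CPM of Car2 and Car4 had a Pearson correlation of 0.96 (Spearman 0.90), and after subtraction of the genotype means one of 0.91. Without KO-695 and KO-696, the libraries farthest from the Car2 median, it was 0.91, and over the 10 WT and HET libraries it was 0.86. The points share library depth and scaling, and the KO libraries other than KO-738 form a group of their own. Among 19387 other tested genes Car2 ranked 9 by correlation with Car4, and Car4 ranked 17 by correlation with Car2. Over the other pairs of the 9 members the correlation ran from -0.67 (Car5b and Car11) to 0.66 (Car12 and Car13), and within genotypes Car9 and Car14 had -0.77. The 5 ordinarily named genes most like Car4 were Hdac6, Slc35f2 and Defb22 (0.97 each), Rufy1 and Piwil2 (0.96 each). Those most like Car2 were Chst10, Slc35f2 and Bsph2 (0.97 each), Slc44a3 and Slc38a4 (0.96 each). Slc35f2 stands in both lists, and all these values cover 15 libraries.

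**Figure D4:**
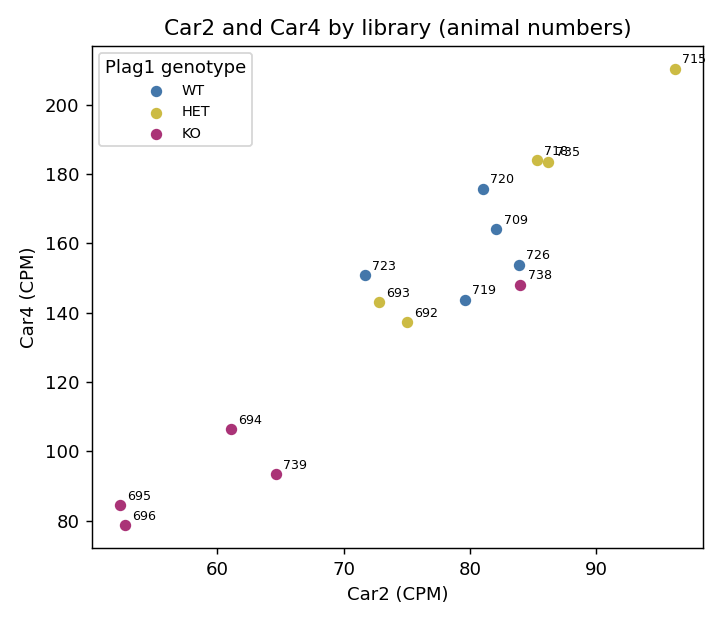
Car4 against Car2, both in CPM, 1 point per library, coloured by genotype and marked with the animal number. KO-694, KO-695, KO-696 and KO-739 lie at the low end of both genes, and HET-715 lies at the high end of both. KO-738 lies inside the WT range in Car4 and just above it in Car2 (84.0 CPM against at most 83.9).

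Car3 (chromosome 3, 14863538 to 14872381) is abundant in skeletal muscle and fat cells and was the most variable of the 9 tested members, with a coefficient of variation of 78.7% in WT. It stood at 4.69, 20.0, 3.89, 6.58 and 6.76 CPM in WT and at 18.7, 9.91, 3.07, 11.1 and 4.26 CPM in HET. In KO-694, KO-695, KO-696, KO-738 and KO-739 it stood at 21.1, 116, 5.29, 49.3 and 802 CPM. Of the 5 KO libraries, 4 lay above all WT and HET libraries, and KO-696 lay within their range. The log2 fold change from WT to KO was 4.6 ± 1.22 (SE, edgeR adjusted p = 0.0468) and that from HET to KO was 4.38 ± 1.20 (0.0762), so only the first passed. Without KO-739 the value against WT was 2.55 (edgeR adjusted p = 0.0913), and against HET it was 2.33 (0.128). The call against WT was kept in 3 of 15 fits without 1 library, those without KO-694, KO-696 or KO-738, and lost in the other 12. Over all genes, the fits that kept it called 318 to 2923 and those that lost it 435 to 1124.

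Markers of skeletal muscle or fat cells were high in KO libraries with much Car3. The 12 skeletal muscle genes had sums of 46.2 to 91.8 CPM in WT libraries, of 29.2 to 120 in HET and of 43.1 to 64.4 in KO without KO-739, where the sum reached 5739 CPM. Of 10 muscle genes tested, 0 passed and 10 had an unadjusted p under 0.05 in KO against WT, with a median log2 fold change of 5.51. Of all tested genes, 6% passed and 23.6% had such a p by edgeR. In KO-739 the fast myosin gene Myh1 stood at 898 CPM, against at most 11.5 CPM in any other library. The 12 fat cell genes summed to 65.5 to 95.9 CPM in WT and 53.8 to 97.2 CPM in HET. In the KO libraries, in the same order as above, they summed to 118, 310, 62.2, 131 and 92.2 CPM. Of 10 fat cell genes tested, 0 passed, 7 had an unadjusted p under 0.05 and all 10 had a positive value (median 1.89), beside the same shares of all tested genes. The KO libraries other than KO-739 had the same order in Car3 as in the fat cell sum, from KO-696 over KO-694 and KO-738 to KO-695. The orders differed in WT and in HET. WT-726 had 6.76 CPM of Car3 with the lowest fat cell sum of WT (65.5 CPM). HET-718 had 11.1 CPM of Car3 and a fat cell sum of 60.95 CPM, against 4.26 and 65.58 CPM in HET-735. The skeletal muscle sum was 119.7 CPM in HET-718, the highest of HET, and 41.9 CPM in HET-735. In WT-726 it was 46.2 CPM, the lowest of WT. The adipocyte hormone gene Adipoq stood at 17.9 CPM in KO-695 and 0.5 to 2.91 CPM in WT. The part of these tissues in the Car3 result was not tested. The genes most like Car3 over the 15 libraries were Abcd2 (Pearson 0.93), Npr3 and Srpk3 (0.92 each), Bzw2 (0.90) and Piezo2 (0.89).

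**Figure D5:**
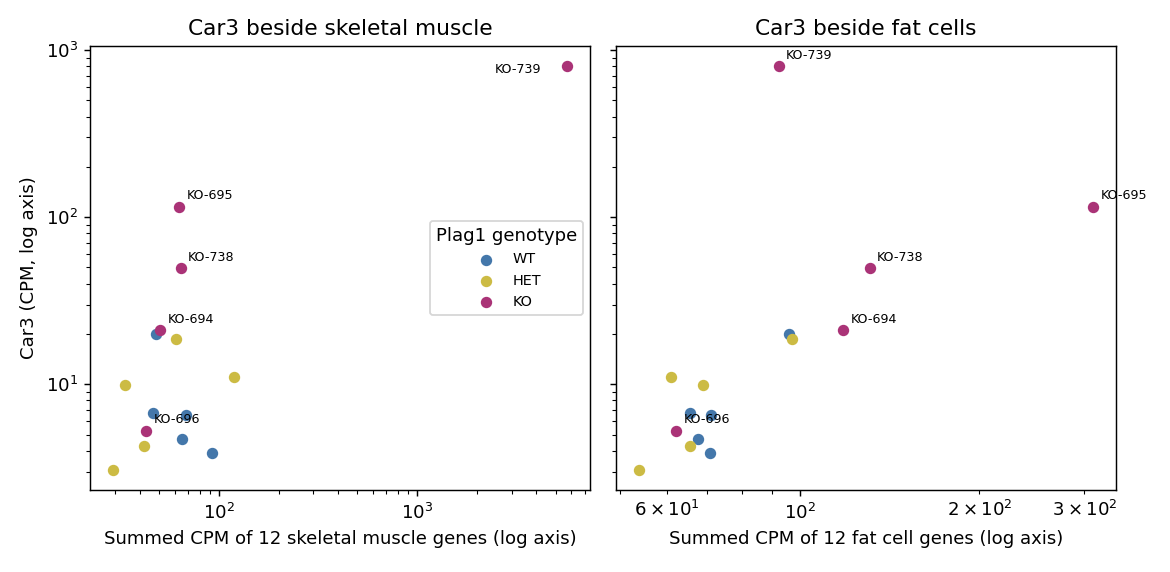
Car3 in CPM against the summed CPM of 12 skeletal muscle genes (left) and of 12 fat cell genes (right), all log axes, 1 point per library. KO-739 stands apart in Car3 and in the muscle sum, and KO-695 is highest in the fat cell sum and has the next highest Car3.

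Among the other cytosolic and mitochondrial members no change passed the test. Car13 averaged 2.85 ± 0.358 CPM in WT (SD, n = 5), 2.90 ± 0.412 in HET and 3.36 ± 0.518 in KO, with a log2 fold change of 0.24 ± 0.14 (SE) in KO against WT (edgeR adjusted p = 0.323). Over libraries it ran from 2.42 to 3.21 CPM in WT and from 2.61 to 3.94 in KO, and KO-739 was highest. Car13, Car3 and Car2 lie with Car1 in 259 kb of chromosome 3 (14641727 to 14900770). In KO against WT these 3 neighbours had values of 0.24, 4.6 and -0.34. Car5b (chromosome X), whose product supplies bicarbonate inside mitochondria, stood at 73.7 ± 5.93 CPM in WT, 75.9 ± 6.08 in HET and 72.1 ± 3.51 in KO. In KO it ran from 67.2 to 75.1 CPM, inside the WT range of 67.7 to 82.6 but for KO-695. Its log2 fold change in KO against WT was -0.03 with a 95% interval from -0.17 to 0.11, which is the narrowest interval among the members.

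The membrane-spanning members Car12 and Car14 did not pass the test in any comparison. Car12 (chromosome 9), which faces the extracellular side, averaged 69.6 ± 3.78 CPM in WT (SD, n = 5), 69.3 ± 4.01 in HET and 74.2 ± 7.69 in KO. The KO libraries ran from 67.3 to 85.5 CPM, with KO-739 and KO-694 above all WT libraries. Its log2 fold change in KO against WT was 0.09 (95% interval -0.05 to 0.24). Car14 (chromosome 3) stood at 11.3 ± 1.51 CPM in WT, 10.7 ± 1.56 in HET and 11.8 ± 1.37 in KO, with a value of 0.06 (-0.19 to 0.32). The 5 KO libraries of Car14 ran from 10.4 to 13.3 CPM and the WT libraries from 9.39 to 12.8, so most of both ranges was shared. In KO-694, KO-695, KO-696 and KO-739 Car4 made up 43.3% to 48.4% of the summed level per kb without Car3, against 54.1% in KO-738 and 54.1% to 60.5% in HET. In the same KO libraries Car12 and Car5b each made up more of that sum (12.02% to 13.7% and 12.5% to 14.0%) than in any WT or HET library. These libraries were set together for their low Car4, the largest part of the sum. A lower share of Car4 and higher shares of other members follow from that grouping and are no further result on Car12 or Car5b.

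Car9 (chromosome 4, 43507026 to 43513729), a tumour-associated enzyme that low oxygen induces, was near the floor with 11 to 27 counts per library. It averaged 0.623 ± 0.195 CPM in WT (SD, n = 5), 0.507 ± 0.119 in HET and 0.642 ± 0.126 in KO, with a log2 fold change of 0.03 (95% interval -0.49 to 0.55) in KO against WT. Of 12 other genes of the hypoxia response, 0 passed in any of the 3 comparisons by edgeR, and 0 had an unadjusted p under 0.05. Their median log2 fold change in KO against WT was 0.03. Of all tested genes, 6% passed in KO against WT, 0% in HET against WT and 1.96% in KO against HET. The shares with an unadjusted p under 0.05 were 23.6%, 4.4% and 20.8% in the same order.

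The members without catalytic activity were low. Car11 (chromosome 7, 45699171 to 45704687) encodes a secreted related protein known from the brain, and averaged 6.39 ± 0.761 CPM in WT (SD, n = 5), 5.86 ± 0.851 in HET and 6.73 ± 1.26 in KO. The KO libraries ran from 4.92 to 8.01 CPM, with KO-739 lowest, and spanned the WT range of 5.54 to 7.22. Its value in KO against WT was 0.07 (95% interval -0.23 to 0.37), and -0.10 with the number range as a term. Car8 (chromosome 4, 8141493 to 8239041) encodes a cytosolic related protein of Purkinje cells and lies 4.203 Mb from Plag1. It had 25 counts over all libraries, 0 to 5 in each. In 5 libraries it had 0 counts, which allows up to 0.0882 to 0.115 CPM there (3 counts, counting error only). A difference between genotypes was not detectable at this depth.

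In HET against WT, 0 of the 9 members passed by edgeR, DESeq2 or limma, and 0 had an unadjusted p under 0.05 by edgeR, against 4.4% of all tested genes with such a p and 0% called. The fitted differences of HET from WT ran from -0.31 ± 0.25 (SE) for Car9 to 0.22 ± 1.18 for Car3. Car4 had 0.12 (95% interval -0.22 to 0.46) and Car2 0.06 (-0.18 to 0.31), and Car5b had 0.04 (-0.09 to 0.18). The median over the members was 0.03. In KO against HET, 1 of 9 members passed, Car4, against 1.96% of all tested genes (0.351% lower). An unadjusted p under 0.05 was reached by 3 (Car2, Car3 and Car4), against 20.8% of all tested genes. Car12, Car14 and Car11 had values of 0.10, 0.13 and 0.20, and Car5b had -0.07, none of which passed.

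Of the other carbonic anhydrase genes, Car7 and the receptor phosphatase gene Ptprg, whose product carries a carbonic anhydrase-like domain, were well expressed. Car7, a cytosolic enzyme known from neurons, averaged 23.9 ± 2.38 CPM in WT (SD, n = 5), 24.03 ± 1.52 in HET and 23.5 ± 5.72 in KO, where the 15.7 CPM of KO-739 was the lowest value of all libraries. Its log2 fold change in KO against WT was -0.02 (95% interval -0.31 to 0.27), and that of Ptprg was -0.08 (-0.34 to 0.18). Car1, Car5a, Car6, Car10 and Car15 had at most 9 counts in any library and were not tested.

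Bicarbonate and proton carriers work beside these enzymes in the duct. Of 15 tested genes of bicarbonate transport and sensing, 2 fell and 1 rose in KO against WT (median -0.03), where 1.6% of all tested genes fell and 4.4% rose. In 7 of 15 fits without 1 library (WT-709, WT-719, WT-723, WT-726, KO-694, KO-695 or KO-696) 0 of them passed, and Slc26a3 was also lost without any 1 HET library or KO-739. Those 7 fits called 318 to 661 genes over the whole table, against 1163 with all libraries. Slc26a7 was lost without KO-739 too, and Adcy10 without WT-720. The anion exchanger genes Slc26a7 and Slc26a3 fell by 0.74 (SE 0.19) and by 0.35 (SE 0.10) on the log2 scale. Adcy10, the gene of the bicarbonate-sensing soluble adenylyl cyclase of sperm, rose by 1.56 ± 0.40, from a WT range of 0.357 to 0.978 CPM to 2.24, 2.04, 4.62, 0.72 and 1.28 CPM in KO-694, KO-695, KO-696, KO-738 and KO-739. The 9 germ cell genes summed to 88.1, 121, 180, 27.8 and 61.6 CPM in the same KO libraries and to 27.0 to 62.9 CPM in WT, and their part in the Adcy10 value was not tested. The chloride channel gene Cftr had a value of 0.17 ± 0.15.

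Of 20 tested genes of proton and lactate transport, 2 fell and 0 rose in the same comparison (median -0.04), again beside 1.6% and 4.4% of all tested genes. Without a filter on low counts, and without WT-709, WT-720, WT-723, KO-694, KO-695 or KO-696, 0 of them passed. Over all genes, 848 of 34343 were called without the filter and 318 to 661 in the fits without these libraries. The proton pump gene Atp6v1c2 fell by 0.53 (SE 0.13) and the lactate carrier gene Slc16a1 by 0.38 (SE 0.10), with edgeR adjusted p-values of 0.0316 and 0.0354. The call of Atp6v1c2 was also lost without WT-726 or KO-739, and that of Slc16a1 without WT-719 or WT-726. Atp6v1c2 stood at 23.0, 18.4, 17.9 and 20.8 CPM in KO-694, KO-695, KO-696 and KO-739, at 33.3 CPM in KO-738 and at 29.1 to 35.5 CPM in WT. Its correlation with Car4 over the 15 libraries was 0.95, rank 13 among all tested genes. Those of Slc16a1, Slc9a3, Slc26a3, Slc26a7 and Slc9a3r1 with Car4 were 0.82, 0.78, 0.76, 0.74 and 0.61 (ranks 419, 672, 791, 915 and 1928). Car4, Atp6v1c2, Slc16a1, Slc26a3 and Slc26a7 were all called lower in KO against WT, a difference that enters these correlations. The sodium-proton exchanger gene Slc9a3 had a value of -0.63 ± 0.20 that did not pass (edgeR adjusted p = 0.0736), with 11.4 to 19.3 CPM in the 4 KO libraries, 28.7 CPM in KO-738 and 23.4 to 28.5 CPM in WT. With the number range as a term, with only the 2 genotypes compared or with only animals numbered 700 and above, 0 genes of either list passed. Over the whole table, 177 of 19388, 287 of 18873 and 0 of 19801 genes passed in those settings. With KO-738 and KO-739 left out, 5 fell and 1 rose in each, of 16 and 20 tested. The genes called over the whole table then went from 1163 of 19388 to 3265 of 19784. In KO against HET 0 of either list passed by edgeR, with 3 and 7 at an unadjusted p under 0.05, against 20.8% of all tested genes. There DESeq2 called 1 gene of each list (Adcy10 higher, Atp6v1c2 lower), limma voom called 3 and 6, and edgeR without KO-738 called 3 and 5. Over all genes these called 1242 and 1952 of 19388 and 2443 of 19539, against 380 of 19388 by edgeR on all libraries.

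Markers of other cell types were compared because Car4 and Car2 are also known from other cells, Car4 from capillary endothelium and Car2 from red blood cells. Shares of all tested genes to set beside the counts are again 4.4% higher and 1.6% lower. Of 8 endothelial genes 7 rose and 0 fell in KO against WT, and they summed to 172 to 241 CPM in KO and 107 to 136 CPM in WT. The 5 red blood cell genes summed to 15 to 38 CPM in WT and 18.3 to 38.1 CPM in KO, and 0 of 3 tested passed. The 6 clear cell genes summed to 254 to 270 CPM in WT and 220 to 269 CPM in KO, with Atp6v1c2 the 1 gene of 5 tested that fell. The 8 initial segment genes summed to 8104 to 12970 CPM in WT and 6519 to 13720 CPM in KO, and 0 of 8 passed. The 5 basal cell genes summed to 367 to 432 CPM in WT and 386 to 458 CPM in KO, and 0 of 5 passed. Of 7 nerve and glia genes 0 passed and of 4 mesothelial genes 2 rose. The part of any of these cell types in the values of Car4 and Car2 was not tested.

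The window from 250 bases before to 50 after the start of each gene was searched for the consensus site of PLAG1, on both strands, in the 6 members of the RefSeq promoter table (GRCm38.p6). Of 32851 such windows, 19.2% held a match. Car5b had a match at chrX:164028110-164028124, from 114 to 100 bases before its start:
Car5b: GGGGCGGGATTAGGG
Car11 had a match at chr7:45699838-45699852, which is covered by the windows of both of its starts:
Car11: GAGGCAGCGCAGGGT
Both are given on the strand of the gene, and all letters of the match are in capitals. The windows of Car4, Car9, Car12 and Car14 held no match of these letters.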

How the data were processed

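The authors deposited raw read counts per NCBI Gene ID for 15 libraries. Per the submitters' processing notes, the build was GRCm38.p6 and the tools were HISAT2 2.0.5, FastQC, featureCounts and Subread 1.4.6p5. The annotation release and strand setting are not given in the sources used here, so reads of overlapping or antisense genes are not separated with certainty. Of the IDs, 96.9% were named through a RefSeq table of GRCm38.p6. The unnamed IDs, 0.163% to 0.208% of a library, were kept in its size.

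Counts were tested with edgeR 4.0.16 (TMM, filterByExpr on genotype, robust quasi-likelihood test) under R 4.3.3. The 15 libraries shared 1 fit with 12 residual degrees of freedom. The Benjamini-Hochberg adjustment covered 19388 genes, and 0.05 was the threshold. CPM uses TMM library sizes, and CPM per kb uses the exon length of the GENCODE M21 basic annotation. Correlations use log2 CPM with a prior count of 2. The labels do not state that every library is a separate animal, so p-values measure the spread between these samples. The biological coefficient of variation was 16.3%. Counting error is of that order or larger in genes with few counts, such as Car8, Car9 and Adcy10 (10 to 24 counts per library in WT). It is smaller, though not negligible, in Car13 (57 to 132 counts per library).

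The 10 members and all gene lists were chosen with earlier results of these data known. The rule named all members, up to 4 genes per list (those past the threshold by smallest p, otherwise the most abundant), and for Car2, Car4 and called members the 5 genes of highest correlation. Cftr, Slc9a3, Slc9a3r1, Myh1, Adipoq, Car7 and Ptprg were named outside it. Tested on simulated counts of 19189 genes, the KO against WT test recovered 73.7% of 2-fold and 98% of 4-fold changes, with 7 false among 177 calls. The simulation drew genes independently, without a deviating library or a number range, and held no change smaller than 2-fold. Its rates do not cover changes as small as those of Car4 and Car2. Alternatives were RLE factors, 2 other filters, DESeq2 1.42.0, limma 3.58.1 (voom), a fit of 2 genotypes, the animal number range, and left-out libraries; leaving out KO-738 and KO-739 together was chosen after seeing the data. Figures used Python 3.11.15 and matplotlib 3.10.9, and sequences were aligned with Biopython.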

Additional observations from a re-analysis of the deposited data

Results flagged for a closer look

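In 3 of 30 groups of 5 libraries (10 genes in 3 genotypes), the highest library stood apart from the others by more of the group's range than Dixon's 95% value of 0.71; chance marks about 1 group in 20. Car3 in KO-739 stood at 802 CPM with 116 CPM in the next KO library, a gap of 0.861 of the range. Car3 in WT-719 stood at 20.0 CPM with 6.76 CPM in the next WT library (0.821 of the range), and that library had the highest fat cell sum of WT, 95.9 CPM. Car8 in WT-726 stood at 0.204 CPM, which is 5 counts, with 0.0502 CPM in the next WT library (0.754 of the range).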

How the results depend on the processing

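In KO against WT, where 2 of 9 members were called (Car3 and Car4), the number called was 0 without a filter on low counts, with only the 2 genotypes compared, with the animal number range as a term and with animals numbered 700 and above only. Over all genes, 848 of 34343, 287 of 18873, 177 of 19388 and 0 of 19801 were called in these settings, against 1163 of 19388. The number of members called ran from 0 to 3 over the 15 fits without 1 library, and all 3 (Car2, Car3 and Car4) were called without KO-738. Over all genes the number called ran from 318 of 19461 without KO-696 to 2923 of 19539 without KO-738. In KO against HET, where 1 member was called, the number was 3 by DESeq2 and 2 with limma voom, with the number range as a term, without HET-693 and KO-738, and without KO-738 and KO-739. Those settings called 1242, 1952 and 362 of 19388 genes, 1660 of 19476 and 3082 of 19784, against 380 of 19388. The number of members was 0 without a filter, with 2 genotypes only and with animals numbered 700 and above only, and from 0 to 3 without 1 library. Over all genes, 328 of 34343, 0 of 19179 and 0 of 19801 were called there, and from 0 to 2443 without 1 library. In HET against WT, 0 members were called in every setting run. In KO against WT, limma voom gave Car3 a value of 2.27 (adjusted p = 0.152) and called Car2 and Car4, among 1693 of 19388 genes.

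Signs turned only in members that were not called. In KO against WT, Car5b had 0.01 with limma voom and with the number range as a term and 0.02 among animals numbered 700 and above, Car11 had -0.10 and -0.22 in the latter pair of settings, and Car9 had -0.05 without HET-693 and KO-738 and -0.02 without KO-738 and KO-739. In HET against WT, Car3 had -0.41 and Car13 -0.02 among animals numbered 700 and above, Car13 -0.02 without HET-693 and KO-738, and Car12 0.00 with limma voom and 0.02 with the term. In KO against HET, Car11 had -0.05 among animals numbered 700 and above. Without 1 library, the ranges that crossed 0 were -0.06 to 0.01 (Car5b), -0.10 to 0.23 (Car9) and 0.00 to 0.11 (Car14) in KO against WT. In HET against WT they were 0.00 to 0.10 (Car2), -0.21 to 0.80 (Car3), 0.00 to 0.08 (Car5b), -0.05 to 0.02 (Car12) and -0.05 to 0.08 (Car13). Apart from fewer samples or more genes tested where these define the setting, the cause was not tested. No paired analysis was possible because the genotypes share no animal numbers.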

Other observations

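The ratio of Car4 to Car2, both per kb of exon, does not depend on library scaling. It was 2.57 to 3.09 in the 5 WT libraries, 2.605 to 3.111 in the 5 HET libraries and 2.06 to 2.51 in the 5 KO libraries. KO did not overlap with either group, but KO-738, the highest of KO at 2.51, lay close to the lowest WT library at 2.57. Among single genes, 4.21% did not overlap in KO against WT and 3.6% in KO against HET. This ratio was chosen from many pairs of members after its values were seen and was not tested. How many ratios of other pairs separate the genotypes was not computed, so no conclusion is drawn from the separation.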
